A study of Mus musculus with 6 samples.

Results

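The mitochondrial ribosomal protein genes were taken as every gene whose symbol is Mrpl or Mrps followed by a number and, for some, a letter, and which had a probe set annotated with that symbol alone. Of 19938 genes with such a probe set, 77 met this rule, 48 of them Mrpl genes and 29 Mrps genes. Together they had 85 probe sets, and each gene was represented by its brightest one over the 6 arrays. The tested samples were 3 pools of germinal vesicle stage oocytes, which are arrested before the first meiotic division resumes, from mice homozygous for a Brwd1 mutation. They were set against 3 such pools from wildtype mice. Both groups were of B6/C3H background, the females were 2 to 6 months old, and they had received 5 IU of equine chorionic gonadotropin, which makes follicles grow, 44 h before collection. Each pool held 100 oocytes. The labels do not give the molecular nature of the mutation, nor whether each pool had its own mice. The p-values therefore reflect how far these pools differ, and that spread could be technical in part.

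Mitochondria carry their own ribosome, which makes the few proteins encoded by mitochondrial DNA, all of them parts of the respiratory chain and ATP synthase. Its ribosomal RNAs come from mitochondrial DNA, but its proteins are encoded in the nucleus, made in the cytosol and imported. The small subunit reads the messenger RNA, and the large subunit joins amino acids into a chain and is held at the inner membrane. Many of the proteins have bacterial homologues and others are found only in mitochondria. Oocytes hold large numbers of mitochondria that pass to the embryo, and their messenger RNAs are made during growth and stored.

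The promoters of 3 members are shown, because they belong to the members with the smallest p-values that have an entry in the RefSeq promoter table and they differ in the letters they hold. The sequences run 5′ to 3′ on the strand of the gene, from 250 bases before to 50 after the annotated start, and come from RefSeq build GRCm38.p6. Capitals mark matches to CCGGAAG, the core bound by ETS factors such as GABP, or to AAGATGGC, the core bound by YY1. Both strands were searched, also for GCGCATGC, a core of NRF1, and for the TATA box TATAAA. Mrps18a lies at chr17:46110754-46111053 on the + strand, Mrpl43 at chr19:45006393-45006692 on the - strand and Mrps5 at chr2:127587176-127587475 on the + strand.
Mrps18a: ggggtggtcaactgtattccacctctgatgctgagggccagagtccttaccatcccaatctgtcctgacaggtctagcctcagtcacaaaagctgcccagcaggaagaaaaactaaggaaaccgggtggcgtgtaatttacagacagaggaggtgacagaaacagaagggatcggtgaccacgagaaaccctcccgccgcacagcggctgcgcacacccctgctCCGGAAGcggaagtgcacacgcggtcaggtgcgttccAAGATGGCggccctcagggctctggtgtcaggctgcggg
Mrpl43: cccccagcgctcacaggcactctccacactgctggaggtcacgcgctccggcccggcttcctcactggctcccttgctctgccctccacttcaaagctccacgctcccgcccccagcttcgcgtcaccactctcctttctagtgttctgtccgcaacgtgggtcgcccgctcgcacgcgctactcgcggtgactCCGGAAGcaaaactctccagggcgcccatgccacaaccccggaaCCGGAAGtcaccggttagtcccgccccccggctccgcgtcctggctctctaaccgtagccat
Mrps5: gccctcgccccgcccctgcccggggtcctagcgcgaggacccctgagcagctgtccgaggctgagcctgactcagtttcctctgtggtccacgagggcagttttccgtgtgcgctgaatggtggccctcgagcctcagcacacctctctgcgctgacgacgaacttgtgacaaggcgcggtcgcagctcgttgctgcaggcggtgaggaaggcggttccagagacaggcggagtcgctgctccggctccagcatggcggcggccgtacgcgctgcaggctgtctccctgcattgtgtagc

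Mrps18a held 1 ETS and 1 YY1 match, Mrpl43 held 2 ETS matches, and the Mrps5 window held 0 matches to the 4 cores. Over the 74 promoters of the 68 members in the table, 33.8% held the ETS core, against 8.86% of all 32851 promoters and 12.1% of promoters of the measured genes. The YY1 core was in 16.2% of member promoters, 2.75% of all promoters and 3.19% of promoters of the measured genes. In the same order, the NRF1 core was in 10.8%, 2.71% and 3.79%, and the TATA box in 6.76%, 13.6% and 11.5%. In related groups the ETS core was in 33.3% of 57 promoters of cytosolic ribosomal proteins and 24.2% of 66 promoters of oxidative phosphorylation genes, and the YY1 and NRF1 cores were in 15.2% each of the oxidative phosphorylation promoters and 5.26% each of the cytosolic ones. These are descriptions of letters in a window. The ETS core was in 31.8% of the 22 promoters of members whose mutant levels all lay below the wildtype levels, and in 34.6% of the 52 promoters of the other members. These promoters belonged to 19 and 49 genes, because some genes, such as Mrpl48, had several. In the same split the YY1 core was in 18.2% and 15.4%, the NRF1 core in 4.55% and 13.5%, and the TATA box in 13.6% and 3.85%, the NRF1 and TATA figures resting on 1 to 7 promoters each.

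Messenger RNAs of mitochondrial ribosomal proteins had slightly lower levels in Brwd1 mutant oocytes for most genes, and no single gene passed the test. The deposited values are log2 signals made with RMA, which scales arrays to each other, so a difference is relative to the other transcripts, a change in total RNA per oocyte cannot be seen, and fewer cells of a type cannot be told apart from less RNA per cell. Of the 77 members, 64 had a lower mean in the mutant samples, 12 a higher one and Mrpl15 the same. The median difference, mutant minus wildtype, was -0.12 on the log2 scale, a ratio of 0.920, against 0.013 over all 19938 genes. The deposited arrays still differed in spread: their upper quartiles were 7.04 to 7.09 in mutant and 7.10 to 7.12 in wildtype samples, and their medians 4.71 to 4.79 and 4.69 to 4.71. The members' median kept its sign under the 3 other scalings tried, at -0.0925 after repeated quantile normalization, -0.105 after cyclic loess and -0.177 after median centring. With limma and Benjamini-Hochberg adjustment over 23410 probe sets, 0 members passed the threshold of 0.05, where 0.105% of all genes and 0.137% of all probe sets passed, with 0.0982% lower and 0.0384% higher in mutant samples. The smallest adjusted p of a member was 0.122. At a limma unadjusted p under 0.05, 16 members, or 20.8%, were lower and 0 higher, against 7.33% and 7.53% of all genes and 13.8% and 6.27% of genes of like level (within 0.25 log2 of a member's mean level). The 16 became 12 after repeated quantile normalization, 14 after cyclic loess and 31 after median centring. The median over all genes was 0.0039, -0.0030 and -0.043 in these scalings. The 31 and the -0.177 after median centring thus include a shift of all genes. Shares of all genes at this p under these scalings are not given here.

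In 22 members, or 28.6%, every mutant level lay below every wildtype level, against 9.33% of all genes. In 1 member, 1.30%, every mutant level lay above, against 10.5% of all genes. The share below is to be read against genes of like level, which are described further on. After another quantile normalization 15 members and 8.68% of all genes had mutant levels wholly below, after cyclic loess 15 members and 9.83%, and after median centring 28 members and 15.8%. Without wildtype 3 the median difference was -0.16, and 36 members and 15.0% of all genes had mutant levels wholly below. Without any other array it was 25 to 28 members and 13.1% to 14.9% of all genes. With an array left out, groups are kept apart more easily, so these counts are not to be compared with the 22.

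The arrays correlated with each other at 0.993 or more. Brwd1, the mutated gene, checked the labels: its level was 4.41, 4.56 and 4.50 in mutant samples 1, 2 and 3, against 8.91, 9.08 and 8.98 in the wildtype samples. All 15 measured markers of the oocyte, among them Zp3 and Gdf9, were above a guide to background of 4.48, the 95th percentile of 1210 probe sets of olfactory and vomeronasal receptors. Their summed linear signal was 38060 to 38555 in mutant and 37375 to 38259 in wildtype samples. All 77 members were above the same guide, with mean levels of 4.50 for Mrpl19 to 10.73 for Mrps33. Levels of different probe sets depend on the probes and are not ranked against each other.

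Among the proteins of the large subunit that have no bacterial homologue, Mrpl38, which sits in the central protuberance, had the smallest p of all members. Its level was 6.81, 6.62 and 6.83 in mutant samples, against 7.23, 7.11 and 7.18 in wildtype samples. The groups did not overlap. The difference was -0.42 (SE 0.0764, n = 3 per group; limma, adjusted p = 0.122), with a 95% interval of -0.60 to -0.24. Mrpl43 was at 5.44, 5.31 and 5.47 in mutant samples, against 5.62, 5.77 and 5.86 in wildtype samples, a difference of -0.34 (limma, adjusted p = 0.170). Mrpl42 was at 8.78, 8.58 and 8.80, against 8.92, 9.03 and 9.09 in wildtype samples, a difference of -0.29 (limma, adjusted p = 0.213). In both, each mutant sample was below each wildtype sample.

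Mrpl48, another protein of the central protuberance, was at 10.34, 10.19 and 10.20 in mutant samples, against 10.54, 10.51 and 10.41 in wildtype samples, a difference of -0.24 (limma, adjusted p = 0.214). RefSeq lists a pseudogene of Mrpl48, and signal from such a copy cannot be told apart here. Mrpl41, which lies near the exit of the tunnel for the new chain, had the lowest difference of all members, -0.45 (SE 0.132; limma, adjusted p = 0.222). Its mutant levels spread widely, at 8.07, 7.81 and 7.55, against 8.31, 8.32 and 8.15 in wildtype samples. A dimmer probe set of Mrpl41 was at -0.16 (limma, adjusted p = 0.554), so the size rests on the probe set used.

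Mrps18a was the member with the next smallest p after Mrpl38. It is 1 of 3 mammalian relatives of bacterial S18, and despite its name it is built into the large subunit. Its level was 9.64, 9.62 and 9.75 in mutant samples, against 10.05, 9.92 and 9.96 in wildtype samples. The difference was -0.31 (SE 0.0658; limma, adjusted p = 0.150), with no overlap of the groups. Its relatives, both in the small subunit, had differences of opposite sign. Mrps18b was at 9.04, 9.01 and 8.87 in mutant samples and 9.30, 9.34 and 8.95 in wildtype samples, a difference of -0.22 with overlapping groups (limma, adjusted p = 0.418). Mrps18c was the 1 member with every mutant level above every wildtype level, at 10.29, 10.28 and 10.27 against 10.18, 10.25 and 10.20, a difference of 0.070 (limma, adjusted p = 0.581). Mrps30, the other Mrps protein of the large subunit, was at 6.98, 7.09 and 7.10 in mutant samples and 6.99, 7.27 and 6.94 in wildtype samples, a difference of -0.010 (limma, adjusted p = 0.970), which was above 0 after repeated quantile normalization and after cyclic loess.

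**Figure D1:**
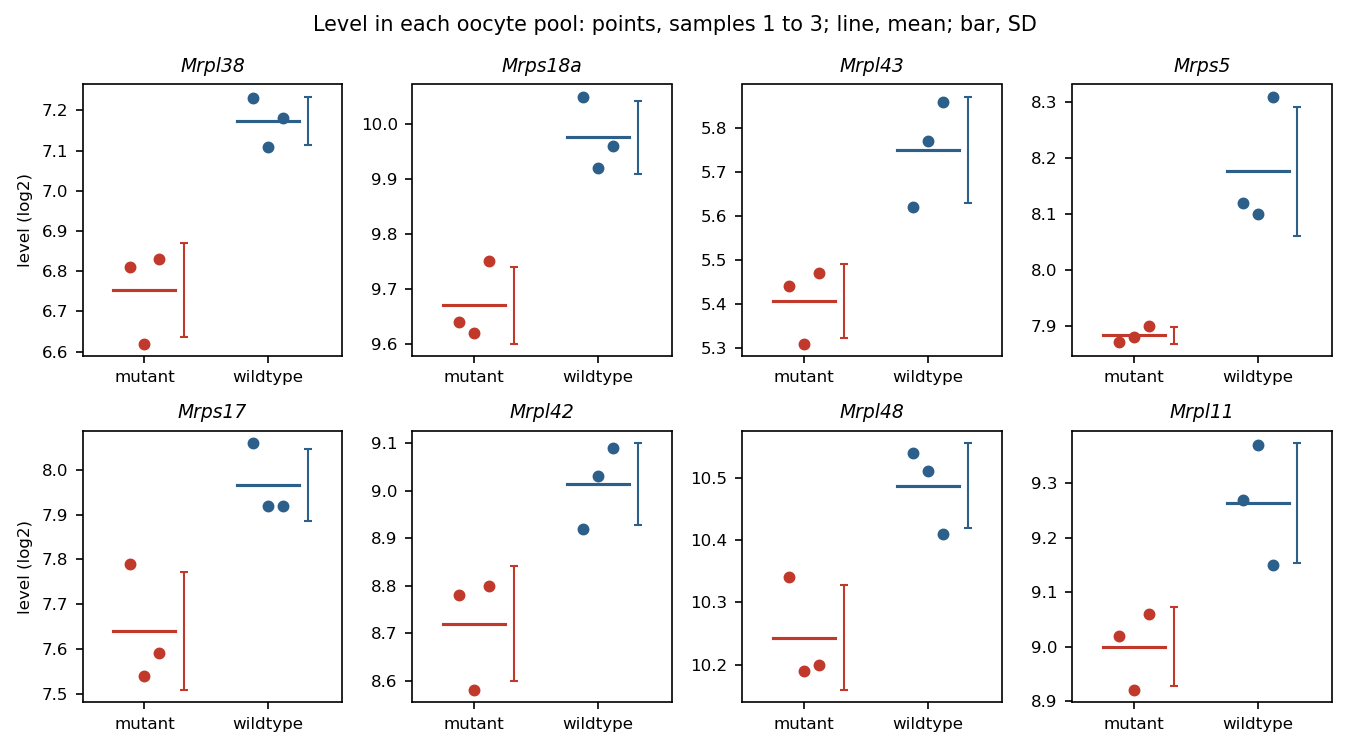
Levels on the log2 scale of the 8 members with the smallest p-values, in the 3 mutant pools (left, red) and the 3 wildtype pools (right, blue); each panel has its own vertical range. Points are samples 1 to 3 from left to right, lines are means and bars are the SD (n = 3). In each panel every mutant level lies below every wildtype level, by differences of means of -0.24 to -0.42.

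Among large-subunit proteins with bacterial homologues, the lowest differences were -0.36 for Mrpl36 and -0.31 for Mrpl13, both with overlapping groups and named after their values were seen (limma, adjusted p = 0.380 and 0.378). Mrpl11, which forms the base of the stalk that meets the translation factors, was at 9.02, 8.92 and 9.06 in mutant samples, against 9.27, 9.37 and 9.15 in wildtype samples. Its difference was -0.26 (limma, adjusted p = 0.222). Mrpl34, the homologue of bacterial L34, was at 8.92, 8.93 and 8.90 in mutant samples, against 9.31, 9.03 and 9.26, a difference of -0.28 (limma, adjusted p = 0.222). In Mrpl11 and Mrpl34 the groups did not overlap.

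Other stalk proteins had groups that overlapped. Mrpl12, the stalk protein that contacts elongation factors, was at 9.64, 9.61 and 9.64 in mutant samples and 9.85, 9.87 and 9.53 in wildtype samples, and the difference of -0.12 had a 95% interval of -0.35 to 0.11. Mrpl10, which anchors the stalk, had a difference of 0.027, with an interval of -0.095 to 0.15, and it was below 0 after median centring. Of the brightest Mrpl members besides Mrpl48 and Mrpl12, Mrpl32 was at -0.16, Mrpl55 at -0.10 and Mrpl18 at -0.017, the last above 0 after repeated quantile normalization and after cyclic loess.

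In the small subunit, Mrps5, whose bacterial counterpart lies near the entry of the messenger RNA, was at 7.87, 7.88 and 7.90 in mutant samples, against 8.12, 8.10 and 8.31 in wildtype samples. The mutant samples hardly differed among themselves and all lay below the wildtype samples, by -0.29 on the log2 scale (SE 0.0719; limma, adjusted p = 0.177). Its dimmer probe set was at -0.43 (SE 0.0692; limma, adjusted p = 0.112), the smallest adjusted p of the 85 member probe sets. Mrps17, a homologue of the rRNA-binding protein S17, was at 7.79, 7.54 and 7.59 in mutant samples, against 8.06, 7.92 and 7.92 in wildtype samples. Its difference was -0.33 (limma, adjusted p = 0.193), and the groups did not overlap.

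Mrps12, at the decoding site, was at 9.23, 9.20 and 9.28 in mutant samples and 9.26, 9.31 and 9.28 in wildtype samples. Its difference of -0.047 had a 95% interval of -0.18 to 0.082, so a change of the size seen in Mrps5 lay outside the interval. The bright members Mrps21 and Mrps33 were at -0.087 and -0.067, with overlapping groups. Both probe sets of Mrps33 gave the same difference with the same SE, 0.0645, and are not to be counted as separate readings. Mrps36, since described as a subunit of the oxoglutarate dehydrogenase complex, was at 0.0067, and below 0 after median centring.

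The higher members were few and their differences small. The highest was Mrpl46, a protein of the central protuberance, at 8.49, 8.46 and 8.15 in mutant samples and 8.23, 8.35 and 8.09 in wildtype samples, a difference of 0.14 with overlapping groups (limma, adjusted p = 0.597). Mrps34, needed for the stability of the small subunit, was at 0.12, close to the guide to background with a mean level of 4.86. Mrpl28 was at 0.10, Mrpl50 at 0.060, Mrps14 at 0.057, and Mrpl44, which has a domain related to ribonuclease III, and Mrps27, a pentatricopeptide repeat protein, at 0.020 each. After median centring Mrpl44 and Mrps27 were below 0. No member differed by more than 0.5 in either direction, and the 95% intervals of the 77 members reached from -0.83 to 0.41 in all.

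**Figure D2:**
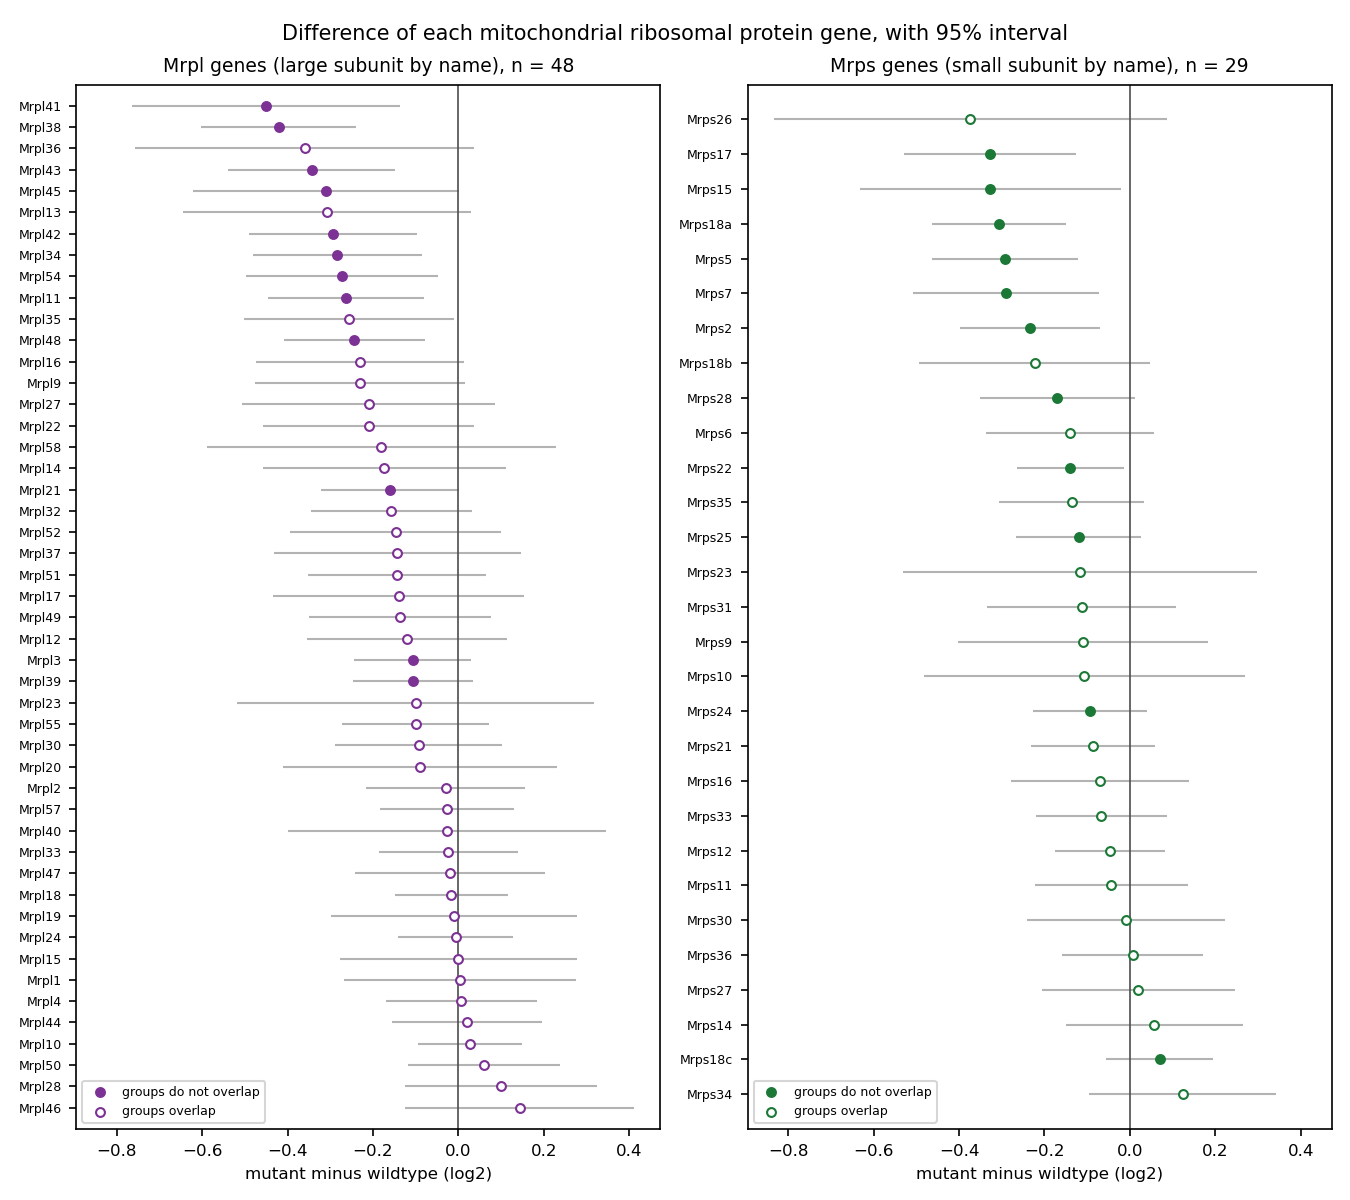
Mutant minus wildtype difference (log2, horizontal axis) of each of the 48 Mrpl genes (left) and 29 Mrps genes (right), with the 95% interval of the limma fit (n = 3 per group). Filled points are genes whose 2 groups of samples do not overlap; 22 of them lie below 0 and 1, Mrps18c, above.

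The medians of the 2 subunits were close. The median was -0.14 over the Mrpl genes and -0.11 over the Mrps genes, 0.025 lower for the Mrpl genes. This gap ran from -0.0017 without wildtype 1 to -0.082 without wildtype 3. It was also taken in each sample, from median deviations from the wildtype mean. The SD of this per-sample gap between samples of a group was 0.0183, which is not a standard error of the 0.025. By sample the Mrpl minus Mrps gap was -0.0033, 0.027 and -0.013 in mutant samples 1, 2 and 3. In wildtype samples it was 0.025, -0.0050 and 0.015, so the groups overlapped and the sign varied within both. Of the Mrpl genes 40 were lower and 7 higher, and of the Mrps genes 24 were lower and 5 higher. Mutant levels were wholly below wildtype levels in 12 Mrpl and 10 Mrps genes, or 25% and 34.5%. Among genes of like level the shares were 17.2% and 17.3%, and over all genes 9.33%. The share was thus higher for the Mrps genes, while the median was lower for the Mrpl genes. These shares were not tested. With Mrps18a and Mrps30 counted in the large subunit, where they are built in, and Mrps36 left out, the medians were -0.14 over 50 genes and -0.12 over 26.

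A split by ancestry showed medians close to each other and unequal counts without overlap. In the large subunit, the 21 proteins found only in mitochondria had a median of -0.14, with mutant levels wholly below in 9. Of the S18 relatives, Mrps18a and Mrps18b were counted as found only in mitochondria and Mrps18c as the bacterial homologue. This is a convention, since all 3 are related to bacterial S18, and Mrps18a is among the 9. The 29 large-subunit proteins with bacterial homologues had a median of -0.11, with 4. In the small subunit, the 16 with bacterial homologues had a median of -0.11, with mutant levels wholly below in 7, and the 10 found only in mitochondria had a median of -0.12, with 2. Over all genes 9.33% had mutant levels wholly below. The shares were 42.9% and 13.8% in the large-subunit classes, against 17.4% and 17.2% of genes of like level, and 43.8% and 20% in the small-subunit classes, against 17.7% and 16.3%. The 13.8% was thus below its matched share and the 20% near it. Genes are not replicates, so these counts carry no test.

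The shift was present in each mutant sample. Taken as the median over members of the deviation from the wildtype mean, it was -0.11, -0.14 and -0.11 in mutant samples 1, 2 and 3, against 0.027, 0.013 and -0.020 in wildtype samples. The groups did not overlap, and the mutant samples lay close to each other. Below the wildtype mean were 58, 66 and 57 members in mutant samples, against 30, 33 and 47 in wildtype samples. The wildtype values lie around 0 by construction, because deviations are taken from the wildtype mean. Of genes of like level, 60.9% had a lower mean in mutant samples. Mutant 2 was lowest, and wildtype 3 lay nearest to the mutant samples.

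**Figure D3:**
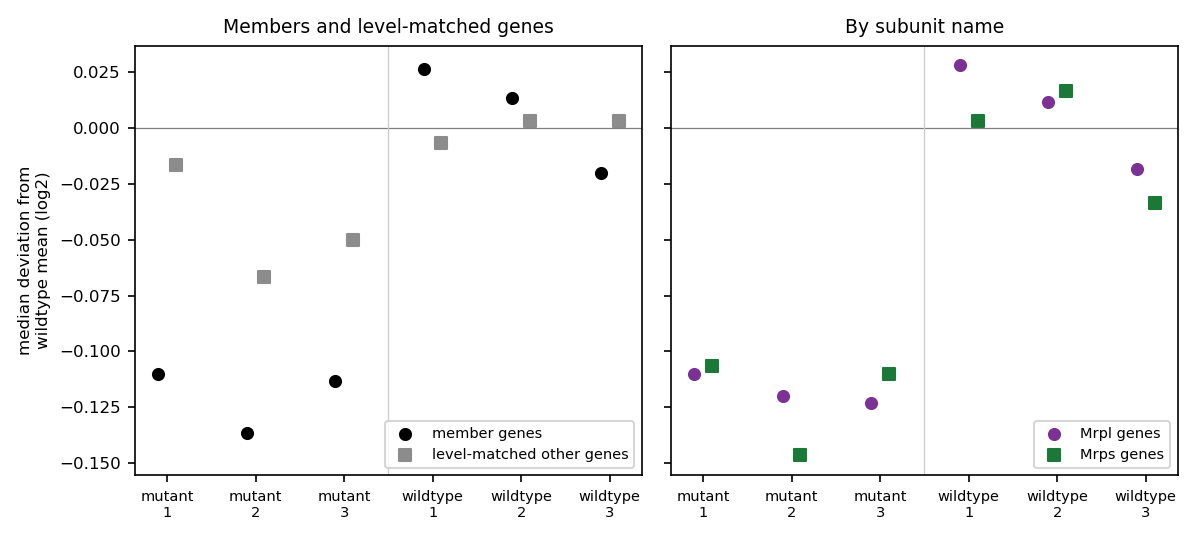
Median deviation from the wildtype mean (log2, vertical axis) in each of the 3 mutant (left) and 3 wildtype (right) pools. The left panel gives the 77 members (circles) and, for each member, the genes of like level (squares, median over members); the right panel gives Mrpl and Mrps genes. Members lie at -0.11 to -0.14 in mutant samples, and genes of like level at -0.017 to -0.067.

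Part of the shift was shared with other genes of the same level. For each member, the genes within 0.25 log2 of its mean level over the 6 arrays were taken, 250 to 2077 genes per member. Their median difference was -0.047 at the median member. Members lay a median of 0.083 below these genes on the log2 scale (members minus matched genes -0.083), and 57 of 77 were below the median of their own matched genes. The gap was -0.093 for Mrpl and -0.060 for Mrps genes. By sample it was -0.097, -0.080 and -0.080 in mutant samples, against 0.030, 0.010 and -0.025 in wildtype samples, again without overlap. Genes of like level had mutant values wholly below wildtype values in 17.1% of cases, against 28.6% of members, and wholly above in 8.0%, against 1.30%. These figures describe the lists and were not tested.

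The dependence on level was seen over all genes. Other genes with mean levels of 4 to 5 had a median difference of 0.067, and those of 7 to 8 had one of -0.067. In the level range of 9 to 10, which held 22 members, the median was -0.13 for members and -0.040 for the 1246 other genes. In the range of 10 to 11 the 4 members had a median of -0.042 and the other genes one of -0.027.

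**Figure D4:**
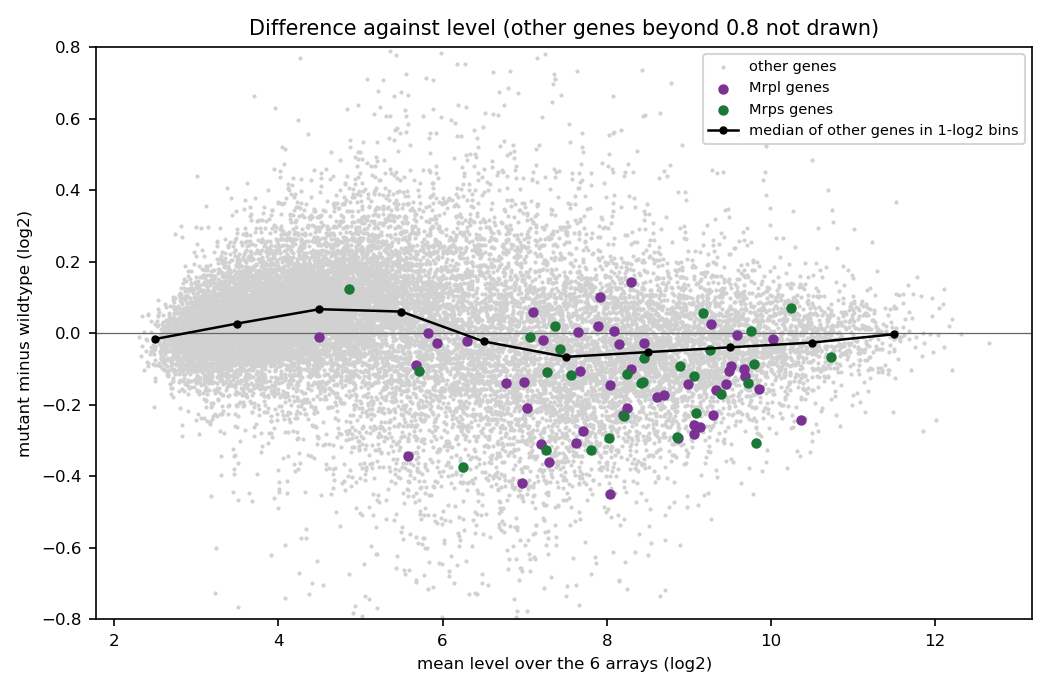
Mutant minus wildtype difference (log2) against mean level over the 6 arrays (log2), for other genes (grey), Mrpl genes (purple) and Mrps genes (green); other genes beyond 0.8 are not drawn. The black line joins medians of other genes in bins of 1 log2, and bins of under 20 genes are left out. Most members between levels of 7 and 10 lie below the line, which is at -0.067 to -0.040 there.

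Markers of other cells were examined beside this shift. Of 18 measured granulosa and cumulus markers, 7 were at or below the guide to background, 13 were higher and 4 lower, and their summed linear signal was 1210 to 1291 in mutant and 1053 to 1205 in wildtype samples. For 10 theca and stroma markers, 6 of them at or below the guide, it was 263 to 276 in mutant and 245 to 255 in wildtype samples. For 15 blood, immune and endothelial markers, 8 of them at or below the guide, it was 626 to 754 in mutant and 559 to 602 in wildtype samples. With limma 0 of these markers passed, where 0.105% of all genes did. At a limma unadjusted p under 0.05 there were 3 higher and 1 lower in the granulosa and cumulus list. There was 1 higher in the theca and stroma list and 2 higher in the blood, immune and endothelial list. Over all genes 45.5% were lower, and at this p 7.33% were lower and 7.53% higher. Genes of like level had median differences of 0.062, 0.045 and 0.025 for the 3 lists in this order. The lists lay a median of 0.018, 0.033 and 0.030 above these genes. Fshr (level 4.24), Cyp17a1 (3.50) and Ptprc (3.91) were below the guide and Foxl2 (5.18) above it. Of the 18 granulosa and cumulus markers, 11 were above the guide, the brightest at 8.97. The smallest p-values of that list were those of Gata4 at 0.29, Ptgs2 at -0.57 and Has2 at 0.49 (limma, adjusted p = 0.170, 0.252 and 0.267). Gata4 was at 8.22, 8.17 and 8.11 in mutant samples, against 7.85, 7.79 and 7.98 in wildtype samples. Col3a1, a theca and stroma marker, was at 0.27 (limma, adjusted p = 0.167). C1qb, a complement gene of macrophages, was at 6.71, 6.92 and 7.06 in mutant samples, against 5.74, 5.76 and 6.49 in wildtype samples, a difference of 0.90 (limma, adjusted p = 0.162). The part of these markers, and of the dependence on level, in the shift of the members was not tested.

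Of the other nuclear genes of mitochondrial translation, 0 of those measured passed with limma. The counts of lower genes that follow stand beside 45.5% lower over all genes and 60.9% lower over genes of the members' levels. The shares for ribosome assembly and for synthetases, 60.9% and 56.2%, were near the second, which is not matched to their own levels. The synthetases were dimmer than the members, with a median level of 5.48 against 8.25. Against genes of their own level they lay at a median of -0.078, with 12 of 16 below. Ribosome assembly genes lay at -0.033, with 15 of 23 below. Mutant levels were wholly below in 18.8% of synthetases, against 7.81% of genes of their level. At an unadjusted p under 0.05, 6 genes of ribosome assembly were lower and 1 higher, and 1 translation factor, 3 synthetases and 4 genes of mitochondrial DNA and RNA handling were lower. Over all genes these shares were 7.33% lower and 7.53% higher, and the 1 of 13 translation factors was near that. Of 4 ribosomal proteins without an Mrp name, 3 were lower, Dap3 at -0.14, Ptcd3 at -0.14 and Gadd45gip1 at -0.20 (limma, adjusted p = 0.369, 0.387 and 0.461). Of 23 genes of ribosome assembly and rRNA modification, 14 were lower and 8 higher, with a median of -0.057. Tfb1m, which methylates the small-subunit rRNA, was at 8.36, 8.42 and 8.50 in mutant samples, against 8.75, 8.79 and 8.66 in wildtype samples, a difference of -0.31 (limma, adjusted p = 0.150). Fastkd2, an RNA-binding protein of large-subunit assembly, was at -0.41, and Rpusd4, a pseudouridine synthase, at -0.36 (limma, adjusted p = 0.152 and 0.160), both with groups that did not overlap.

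Of 13 mitochondrial translation factors, 9 were lower and 4 higher, with a median of -0.17. The release factor gene Mtrf1 was at -0.42, the initiation factor gene Mtif2 at -0.37 and Taco1, an activator of Cox1 translation, at -0.27 (limma, adjusted p = 0.306, 0.355 and 0.391). Of 16 mitochondrial aminoacyl-tRNA synthetases, which load tRNAs with amino acids, 9 were lower and 6 higher, with a median of -0.030, and Rars2 was at -0.31, Fars2 at -0.24 and Ears2 at -0.22. Of 16 genes of mitochondrial DNA replication, transcription and RNA handling, 14 were lower and 2 higher, with a median of -0.12. Pnpt1, the polynucleotide phosphorylase, was at 5.59, 5.25 and 5.46 in mutant samples, against 5.79, 6.25 and 6.29 in wildtype samples, a difference of -0.68 (limma, adjusted p = 0.156). Elac2, which trims the ends of tRNAs, was at -0.29 and Polrmt, the mitochondrial RNA polymerase, at -0.37. Genes encoded by mitochondrial DNA, the ribosomal RNAs included, were not analysed here.

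The members' median lay above that of the mitochondrial translation factors and of the ribosomal proteins without an Mrp name, whose own was -0.14, and below that of the larger lists. It was -0.12 for the members, -0.077 for 72 nuclear genes of oxidative phosphorylation, the respiratory chain and ATP synthase, and -0.047 for 60 cytosolic ribosomal proteins. Against genes of like level, the medians were -0.083, -0.042 and -0.048. In the smaller lists they were -0.147 for translation factors and -0.107 for ribosomal proteins without an Mrp name. They were -0.078 for synthetases, -0.075 for mitochondrial DNA and RNA handling and -0.033 for ribosome assembly. Mutant levels were wholly below wildtype levels in 28.6% of members, 20.8% of oxidative phosphorylation genes and 30.0% of cytosolic ribosomal proteins. The shares among genes of like level were 17.1%, 18.1% and 15.0%, so that of oxidative phosphorylation genes was near its matched share. Of the oxidative phosphorylation genes, Cyc1, the cytochrome c1 of complex III, was at -0.36, and the complex I genes Ndufs4 and Ndufv3 at -0.22 and -0.23 (limma, adjusted p = 0.158, 0.185 and 0.213). These differences between lists were not tested.

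Brwd1 lies on chromosome 16, and so do 3 members, named for that place after their values were seen. Mrpl39 and Mrps6, within 20 Mb of Brwd1, were at -0.11 and -0.14, and Mrpl40, farther away, at -0.027 (limma, adjusted p = 0.452, 0.479 and 0.951). Mrpl45, also named after its values were seen, holds the ribosome at the inner membrane. It was at 7.20, 6.77 and 7.18 in mutant samples, against 7.38, 7.22 and 7.48 in wildtype samples, a difference of -0.31 with no overlap of the groups (limma, adjusted p = 0.342). Of the 8 members with more than 1 probe set, 6 had differences of the same sign in both. Mrpl51 was at -0.14 and 0.017 in its brighter and dimmer probe sets, and Mrps36 at 0.0067 and 0. RefSeq names pseudogenes for 4 members, Mrpl23, Mrpl27, Mrpl48 and Mrps36, for which signal from copies cannot be told apart.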

How the data were processed

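RNA was amplified from 1 ng per pool with the NuGEN Ovation Pico system and hybridised to Affymetrix mouse Gene ST arrays, 1 per sample, per the labels' protocols. The deposited values are log2 values to 2 decimals, made with Affymetrix Expression Console 1.1 and RMA, per the submitters' processing notes. RMA scales arrays to each other and compresses differences near background. For the probe annotation, a genome build was not given in the sources used here. Of 35556 probe sets, 21789 had 1 gene symbol, 1621 several, among them 1 with a member's symbol (not used), and 12146 none. RefSeq (GRCm38.p6) lists all 77 members under the same symbol.

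Mutant minus wildtype differences were fitted with limma 3.58.1 in R 4.3.3 (lmFit, eBayes, two-sided, no covariates, no filter on level) over 23410 probe sets with a symbol and adjusted by Benjamini-Hochberg. With 3 arrays per group the number of arrays limits the precision, and the median SE of members was 0.0876. Tested on simulated data with 200 of 23410 probe sets changed, the mutant against wildtype fit recovered 47.2% of differences of 0.5 and 87.6% of differences of 1 on the log2 scale. No difference below 0.5 was simulated and no member differed by more than 0.5, so recovery at the sizes seen in members was not measured. Lists are described by counts and medians.

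The members and lists were chosen with earlier results of these data known. No column of the table lacked a sample. Named were Brwd1, the 10 with the smallest p in each direction, the 5 brightest of each subunit and 6 chosen for their place in the ribosome, plus up to 3 genes with the smallest p in each related list. Alternatives were the replicate block, 3 scalings, 2 filters on dim probe sets, 2 variance settings, all probe sets, gene means, each array left out, subunits by structure and other level windows.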

Additional observations from a re-analysis of the deposited data

How the results depend on the processing

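In each setting tried 0 members were called with limma, and the smallest limma adjusted p of a member lay between 0.0771 and 0.259. The number of probe sets called in all, 32, varied more: 1 with the replicate block, 1 over all probe sets, 76 with eBayes trend and robust settings, and 1 to 18 when 1 array was left out. The labels number the replicates and do not say whether samples of the same number were paired. Correlations of same-numbered deviations were -0.0015, -0.031 and 0.036, and 2 of 6 samples correlated best with their own number. With 3 samples per group these values cannot settle the question. With the replicate block the median of members stayed at -0.12 and 19 members were lower at a limma unadjusted p under 0.05. The median of members, of Mrpl and of Mrps genes was -0.0925, -0.101 and -0.0689 after quantile normalization again. It was -0.177, -0.195 and -0.17 after median centring, and -0.105, -0.113 and -0.0873 after cyclic loess. Left-out arrays gave -0.157 to -0.0983, -0.187 to -0.1 and -0.132 to -0.0967. The Mrpl minus Mrps gap was -0.0502 with array weights and -0.0817 to -0.00167 with an array left out. The gap to genes of like level was -0.0797 to -0.0867 in the settings with all arrays, including windows of 0.5 and 0.1, and -0.114 to -0.0617 with an array left out. Counts of lower members, added after seeing the data, were 58 to 71 with all arrays and 61 to 66 with an array left out. At an unadjusted p under 0.05, 31 members were lower after median centring, where the median over all genes was -0.043. With an array left out 13 to 24 members were lower at this p. Without wildtype 3, 36 members and 15.0% of all genes had mutant levels wholly below, and without any other array 25 to 28 members and 13.1% to 14.9% of all genes. Single members near 0 changed sign: Mrpl18 and Mrps30 were at 0.010 and 0.037 after quantile normalization again and 0.016 and 0.0086 after cyclic loess, and after median centring Mrpl10 was at -0.030, Mrpl44 and Mrps27 at -0.037 and Mrps36 at -0.050. With an array left out, Mrpl18 ran from -0.035 to 0.010, Mrps30 from -0.073 to 0.092, Mrpl44 from -0.025 to 0.070, Mrps27 from -0.033 to 0.11, Mrps36 from -0.027 to 0.053 and Mrps14 from -0.0050 to 0.12. The cause was not tested. Mrps14 was at 0 after median centring.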
